A study of Mus musculus with 36 samples.

Results

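The antigen processing and presentation genes are 33 genes, of 53465 in the count table, that were chosen by gene symbol for their role in MHC class I and class II presentation. They comprise 8 class I heavy chains, the class I light chain B2m, 8 genes of peptide transport and loading, 5 of the immunoproteasome, 2 transactivators, 7 of the class II pathway and 2 co-stimulators. Of these, 28 had enough counts to be tested and 5 did not. They were followed in RAW 264.7, an established macrophage-like mouse line from BALB/c mice that the labels give as wild type. RNA was sequenced from 12 groups of 3 libraries. One group had solvent and one had 10 µg/mL lipopolysaccharide (LPS, a bacterial outer membrane component that activates macrophages). Another 5 had only melatonin, in steps of 10-fold from 1 mM down to 0.1 µM, and the last 5 had the same melatonin doses together with LPS. In the combined groups melatonin preceded LPS by 30 min, and every group was collected after 12 h. The design asks how melatonin alters the response of these cells to LPS. All 12 groups are the same line, so the values describe 1 transformed cell line and not primary macrophages.

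MHC class I molecules display peptides from the cytosol to CD8+ T cells. Proteasomes cut proteins into peptides, the transporter TAP moves the peptides into the endoplasmic reticulum, and chaperones load them on a heavy chain paired with beta-2 microglobulin. MHC class II molecules display peptides made in endosomes to CD4+ T cells, and macrophages raise class II mainly after interferon-gamma rather than after LPS. Full activation of a T cell also needs co-stimulators such as CD80 and CD86 on the presenting cell.

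The libraries held 4203313 to 7590271 counts, and 3 counts in a library, which a count of 0 still allows, correspond to 0.388 to 0.599 CPM (counts per 1e+06 counts of tested genes, scaled between libraries). All 7 macrophage markers were detected and tested. Of the dendritic cell markers 4 of 7 were tested, with a summed level of 0.925 to 14.3 CPM per library, and of the B cell markers 0 of 5 were tested, with a sum of 0 to 1.36. The corresponding sums were 0 to 7.48 for 5 T cell markers (1 tested) and 0 to 9.38 for 3 fibroblast markers (1 tested). The profiles of 2 libraries, labelled 1 mM melatonin replicate 3 and 1 µM melatonin replicate 1, stood apart from the other libraries with the same label. The macrophage markers summed to 11158 in the first, against 4717 and 4572 in the other 1 mM libraries. They summed to 4272 in the second, against 12271 and 12284 in the other 1 µM libraries. Over 9216 genes, the second library's deviations from the mean of the libraries without LPS correlated at 0.252 with those of the 1 mM group and at -0.272 with those of its own group, and the first library's at -0.199 with its own group. The first library correlated at -0.118 with the 1 µM group. Correlations with the own group were also negative for 1 µM replicates 2 (-0.0792) and 3 (-0.0536), against means that include replicate 1. For 10 µM replicate 1 the value was -0.0243. The profiles of the 2 libraries named first went against their labels, and whether the labels are wrong was not tested. The calls that use 1 mM or 1 µM melatonin alone are given with and without these 2 libraries in doubt. Replicate 3 of LPS with 1 mM melatonin, the shallowest library, also stood apart. Its counts differed from replicates 1 and 2 by a chi-square per degree of freedom of 41.3 and 40.5, against 15.1 between those 2. Without it, 4 of the 6 members called in LPS with 1 mM melatonin against LPS were called.

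Per gene length, B2m was the most abundant member. In FPKM (fragments scaled by gene length and library size, the authors' values) it stood at 339.6 ± 47.3 in solvent (SD, n = 3). It was followed by Ifi30, a lysosomal thiol reductase that opens disulfide bonds of antigens, at 211 ± 8.31. The calnexin gene Canx stood at 167 ± 5.68 FPKM, the calreticulin gene Calr at 116 ± 7.89 and the heavy chain H2-D1 at 107 ± 11.2. These 5 genes were the members at or above 100 FPKM in solvent. The mean levels of Calr and H2-D1 differed by less than the sum of their SDs. The other classical heavy chain, H2-K1, stood at 63.7 ± 1.10 FPKM and the immunoproteasome subunit Psmb8 at 55.8 ± 4.71. H2-K1 and H2-D1 together held 80.0% to 91.5% of the summed CPM of the 8 heavy chains in every library. The remaining heavy chains lay between 1.34 ± 0.0747 FPKM for H2-Q7 and 12.9 ± 5.74 for H2-Q4. Tap1, a TAP subunit, stood at 8.45 ± 2.92 FPKM and its partner Tap2 at 2.60 ± 1.43.

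**Figure D1:**
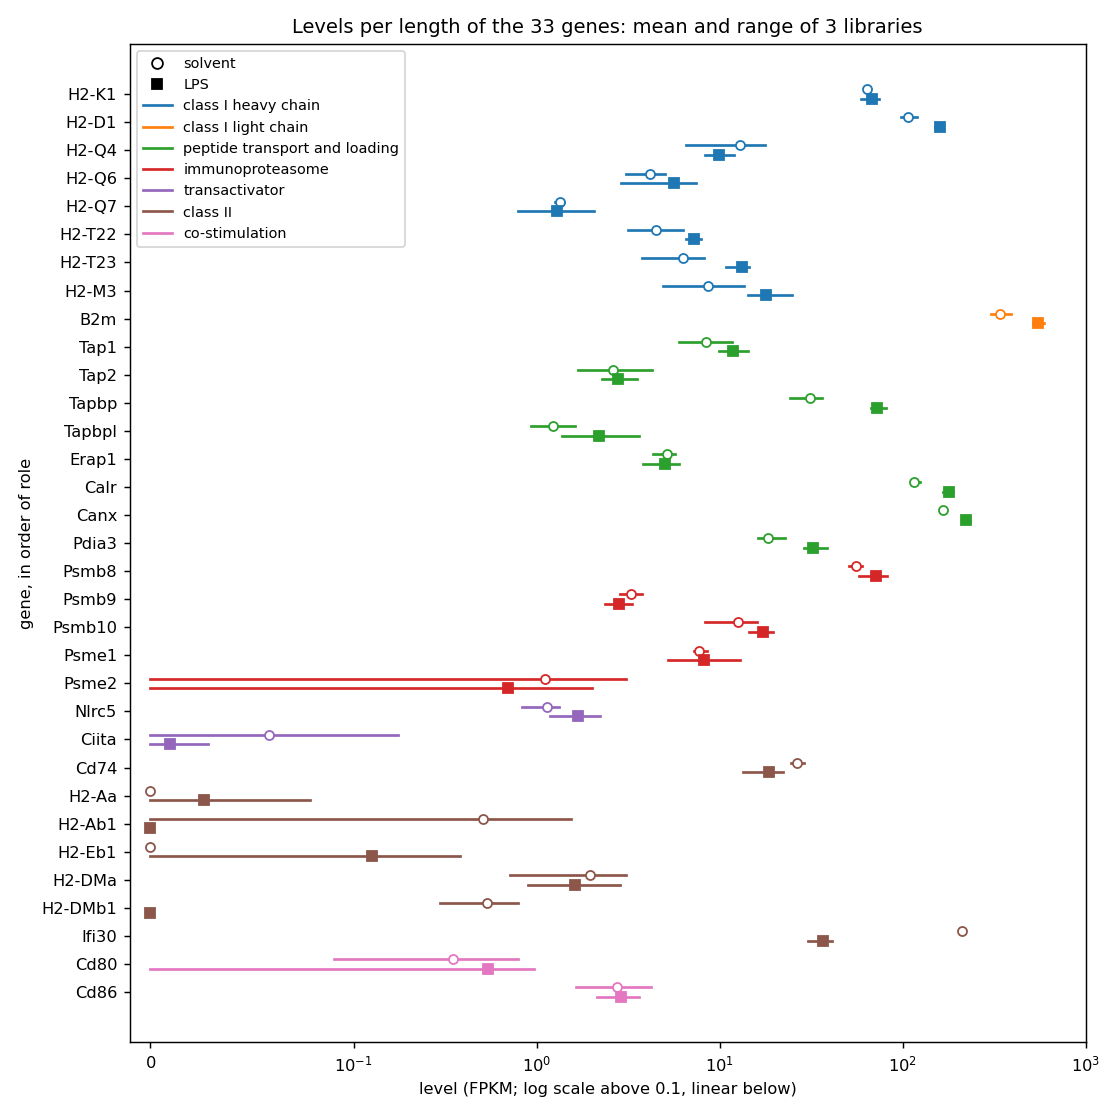
Level per gene length (horizontal axis, FPKM, logarithmic above 0.1 and linear below) of the 33 genes, coloured by role, in solvent (open circles) and LPS (filled squares). Symbols are means and lines span the lowest and highest of 3 libraries; B2m lies furthest right in both groups, Ifi30 moves from 211 to 36.7 FPKM, and the classical class II chains lie at or near 0.

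The upstream regions of 4 members are shown because their RNA values differed: H2-K1 and H2-Q4, 2 heavy chains of unlike level, the light chain B2m, and Ifi30. They are RefSeq sequences (GRCm38.p6) of up to 200 bases upstream of the start, 5′ to 3′ on the strand of the gene, at chr17:34000348-34000547 (minus), chr17:35379417-35379616 (plus), chr2:122147487-122147685 (plus) and chr8:70766664-70766863 (minus). Capitals mark matches on either strand, and overlapping matches run together. The letters are GAAANNGAA (a form of the interferon response element), GGGNNNTCC (the kappa B motif bound by NF-kB) and CCAAT (the CCAAT box).
H2-K1: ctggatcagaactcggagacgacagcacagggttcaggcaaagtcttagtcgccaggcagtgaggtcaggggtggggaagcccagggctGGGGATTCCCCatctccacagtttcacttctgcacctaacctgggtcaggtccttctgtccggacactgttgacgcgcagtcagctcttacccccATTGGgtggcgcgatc
H2-Q4: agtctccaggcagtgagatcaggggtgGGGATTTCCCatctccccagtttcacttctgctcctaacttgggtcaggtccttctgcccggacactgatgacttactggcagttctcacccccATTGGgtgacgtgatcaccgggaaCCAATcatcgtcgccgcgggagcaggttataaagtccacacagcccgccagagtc
B2m: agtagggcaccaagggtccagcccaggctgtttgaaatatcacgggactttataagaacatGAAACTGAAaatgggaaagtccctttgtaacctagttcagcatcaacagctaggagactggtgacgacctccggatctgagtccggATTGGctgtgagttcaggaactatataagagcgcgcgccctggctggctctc
Ifi30: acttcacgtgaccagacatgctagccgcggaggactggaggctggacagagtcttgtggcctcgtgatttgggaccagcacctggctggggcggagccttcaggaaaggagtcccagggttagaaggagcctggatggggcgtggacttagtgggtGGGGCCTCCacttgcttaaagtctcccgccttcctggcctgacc

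Of the 33 members 26 had such a window of 200 bases upstream of a RefSeq start. In H2-D1, Erap1, Psmb8 and Psmb9 all 200 bases lie in GENCODE exons of the same gene, and in H2-T23 154 do. Matches there are in exon sequence as well. The kappa B letters occurred in 10 of the 26 (38.5%), beside 12.7% of all 32851 windows of this length, and the 10 include H2-K1, H2-D1, H2-Q4, H2-Q6, H2-Q7, Calr and Ifi30. H2-K1 and H2-Q4 both hold these letters. The interferon letters occurred in H2-T22, H2-T23, B2m and Erap1 (15.4%, beside 5.57% of all windows), and CCAAT in 18 of the 26 (69.2%, beside 29.3%). Other forms of the interferon response element were not searched, so a window without these letters may still hold another form. In Ifi30 the 1 match was to the kappa B letters, 44 to 36 bases before the start, while B2m had interferon letters 139 to 131 bases and CCAAT letters 53 to 49 bases before it. The shares differ in unit: a member counted if any of its windows matched, whereas all windows were counted singly. H2-K1, H2-DMa and Psme2 had more than 1 window. Psme2 matched the kappa B letters, and H2-DMa CCAAT, in only 1 of their windows. The heavy chains share recent ancestry, so their windows are not independent, and a match describes letters and no binding.

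The class II chains were close to absent. H2-Aa had 1 count over all 36 libraries, H2-Eb1 had 6 and H2-Ab1 had 22. H2-DMb1, a chain of the peptide exchange factor DM, had 53 counts, and Ciita, the class II transactivator, had 16. Ciita was at 0 in 33 of 36 libraries, with 0, 0.942 and 0 CPM in the 3 solvent libraries and 0, 0 and 0.154 in the 3 LPS libraries. None of these 5 genes could be tested, and H2-Aa and Ciita had 0 counts in all 15 libraries of LPS with melatonin. H2-DMa, the other DM chain, was tested with 544 counts in all. Its exons overlap by 10.4% with Brd2 on the opposite strand, which had 92479 counts, and because the strand setting of the counting is not stated the reads of the 2 genes cannot be told apart. Cd74, the invariant chain that guides class II chains to endosomes, was the class II pathway gene besides Ifi30 with a substantial level, at 26.6 ± 2.22 FPKM in solvent.

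LPS raised 7 of the 28 tested members and lowered 1, where a call is an adjusted p below 0.05 in edgeR's quasi-likelihood test with Benjamini-Hochberg adjustment over all tested genes. That is 28.6% of the tested members, beside 16.5% of all 16988 tested genes. The median log2 fold change of the members was 0.44, beside -0.02 over all genes. The members that rose were the heavy chains H2-D1 and H2-T23, the light chain B2m, and 4 of the 8 loading genes, namely Tapbp, Calr, Canx and Pdia3. Ifi30 fell. No immunoproteasome gene, transactivator or co-stimulator was called. The 7 macrophage markers summed to 12015 to 12653 CPM in the solvent libraries and 10426 to 10646 with LPS, and among them Ptprc and Adgre1 rose and Csf1r fell. The part of that shift in the values of the presentation genes was not tested. In bulk RNA, fewer cells expressing a gene and less of its RNA per cell cannot be told apart.

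B2m stood at 281, 345 and 265 CPM in the solvent libraries and at 476, 523 and 457 in the LPS libraries, a log2 fold change of 0.71 ± 0.14 (SE, adjusted p = 9.64e-05). H2-D1 stood at 312, 257 and 271 CPM in solvent and 398, 432 and 438 with LPS (log2 fold change 0.59 ± 0.14, adjusted p = 0.00208). For both genes every LPS library lay above every solvent library. H2-K1 had no such shift, with 167, 168 and 172 CPM in solvent and 199, 190.4 and 160.1 with LPS, and its groups overlapped. Its log2 fold change was 0.12, with a 95% interval of -0.21 to 0.45 and an adjusted p of 0.715.

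H2-T23 encodes Qa-1, a non-classical class I molecule that engages NK cell receptors. It stood at 23.96, 20.6 and 11.1 CPM in solvent and 42.3, 42.9 and 32.4 with LPS, without overlap (log2 fold change 1.08 ± 0.33, adjusted p = 0.0174). Without solvent replicate 3 its adjusted p was 0.159, without LPS replicate 1 it was 0.0612 and without LPS replicate 2 it was 0.0655. The other heavy chains did not pass, with log2 fold changes from -0.37 for H2-Q4 to 1.06 for H2-M3, which presents formylated peptides.

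Tapbp encodes tapasin, which holds the heavy chain at the TAP transporter during loading, and it had the largest rise of the members called. It went from 80.5, 122 and 109 CPM in solvent to 228, 238 and 274 with LPS, 2.37-fold (log2 fold change 1.25 ± 0.18, adjusted p = 6.12e-07). The lowest LPS library was well above the highest solvent library. Calr, a chaperone of the loading complex, stood at 365, 327 and 327 CPM in solvent and 551, 558 and 491 with LPS (log2 fold change 0.65 ± 0.14, adjusted p = 0.000703). Canx, which folds new heavy chains, stood at 776, 782 and 826 CPM and 1054, 1023 and 1122 (log2 fold change 0.42 ± 0.11, adjusted p = 0.00358). Both genes were higher in all 3 LPS libraries than in any solvent library, and calnexin had the smallest shift of the 8 members called.

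Pdia3 encodes ERp57, the disulfide isomerase of the loading complex. It stood at 72.5, 52.0 and 52.3 CPM in solvent and 93.7, 124 and 95.8 with LPS, again without overlap (log2 fold change 0.83 ± 0.23, adjusted p = 0.00708, and 0.0616 without LPS replicate 2). Tap1 stood at 64.7, 43.0 and 33.3 CPM in solvent and 55.8, 80.3 and 64.6 with LPS, and its groups overlapped (log2 fold change 0.51, adjusted p = 0.163). Tap2, the TAPBPR gene Tapbpl and the peptide-trimming aminopeptidase Erap1 did not pass, with log2 fold changes of 0.10, 0.85 and -0.02.

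The immunoproteasome replaces the catalytic subunits of the standard proteasome by Psmb8, Psmb9 and Psmb10. Psmb8 stood at 157, 142 and 167 CPM in solvent and 210.1, 162 and 233 with LPS (log2 fold change 0.38, 95% interval 0.01 to 0.74, adjusted p = 0.165). Psmb9 stood at 10.5, 14.1 and 12.1 CPM and 10.5, 12.5 and 8.94 (log2 fold change -0.20, adjusted p = 0.857). The groups overlapped for both genes. Psmb10 and the activator subunits Psme1 and Psme2 gave log2 fold changes of 0.47, 0.10 and -0.66, none of them called.

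Nlrc5, the transactivator of class I genes, stood at 11.4, 11.1 and 7.19 CPM in solvent and 14.4, 19.5 and 10.3 with LPS, with overlapping groups (log2 fold change 0.57, adjusted p = 0.550). Cd74 stood at 41.3, 38.2 and 35.1 CPM in solvent and 19.4, 29.0 and 32.2 with LPS. Every LPS library was below every solvent library, yet the change did not pass the test over all genes (log2 fold change -0.51, adjusted p = 0.136).

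The co-stimulators were low in both groups. Cd86 stood at 8.83, 6.12 and 15.7 CPM in solvent and 13.7, 8.01 and 10.9 with LPS (log2 fold change 0.09, 95% interval -0.996 to 1.17, adjusted p = 0.959). Cd80 had 138 counts in all and was at 0 in 22 of 36 libraries. It stood at 1.36, 0.157 and 0.2996 CPM in solvent and 0, 1.16 and 1.70 with LPS, and its adjusted p was 0.912. A change of Cd80 was not detectable at this depth. CD40, another receptor by which presenting cells and T cells interact, did rise: Cd40 had a mean of 9.52 ± 3.51 CPM in solvent and 220.1 ± 34.6 with LPS (SD, n = 3 each), a log2 fold change of 4.53 ± 0.47 (adjusted p = 3.05e-10).

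**Figure D2:**
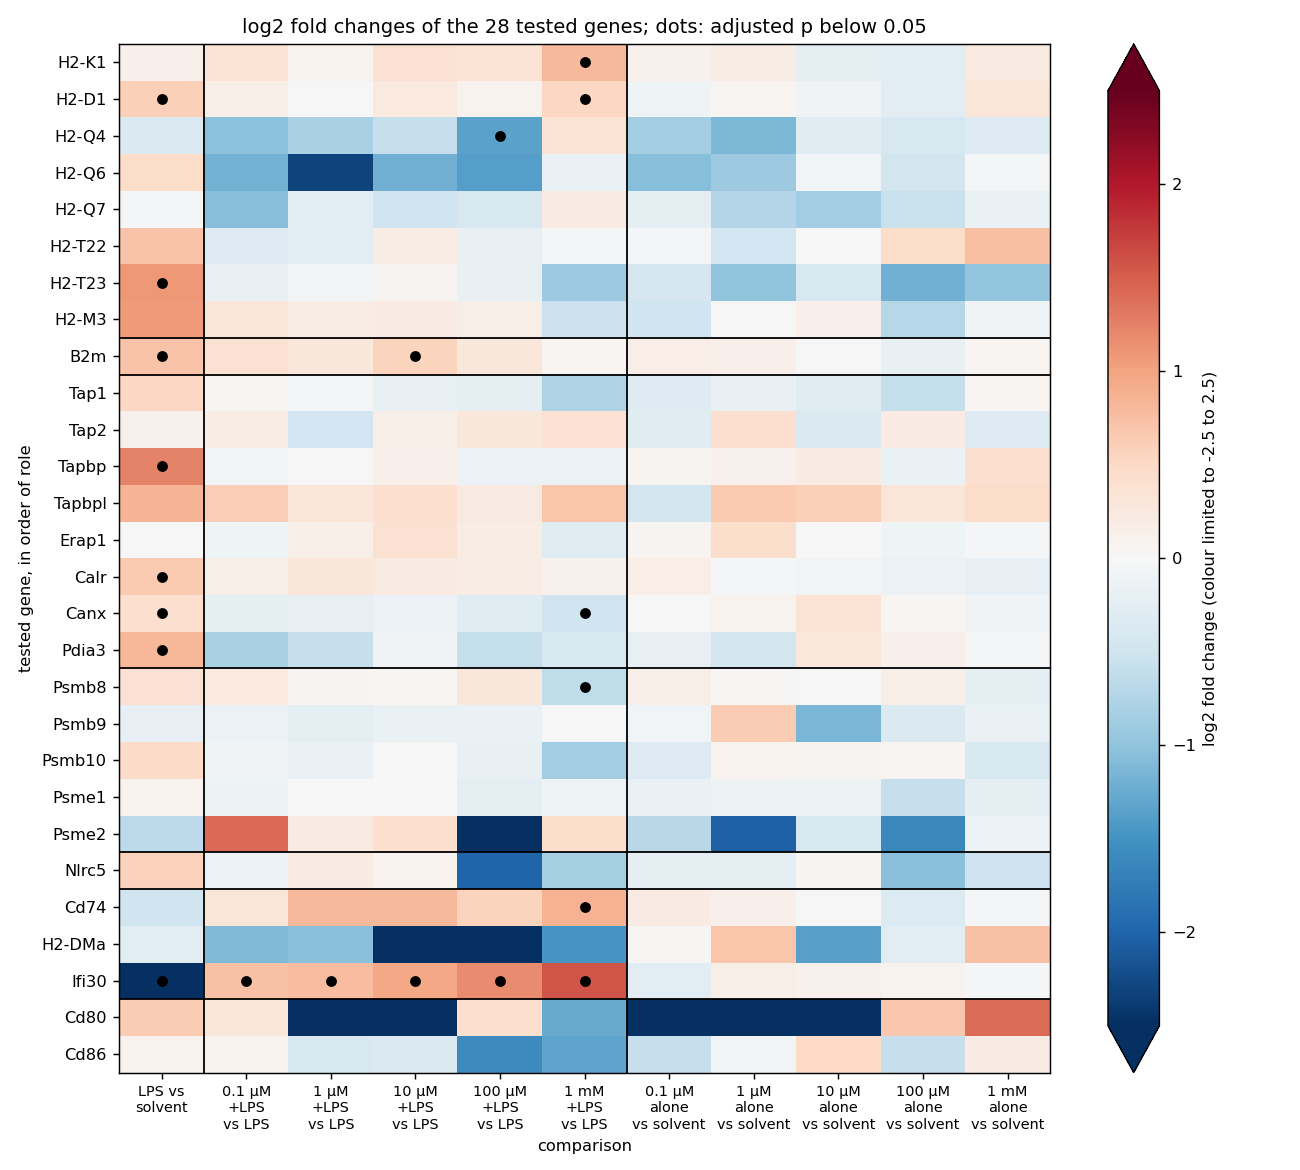
Fitted log2 fold changes (colour, red higher and blue lower) of the 28 tested genes, in order of role (rows, black lines between roles), for LPS against solvent, 5 melatonin doses with LPS against LPS, and 5 doses alone against solvent (columns). Black dots mark an adjusted p below 0.05; they run across all 5 LPS columns with melatonin for Ifi30 and are absent from all 5 columns of melatonin alone, and deep colours without dots in Psme2, H2-DMa and Cd80 are genes with few counts.

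Ifi30 had the largest change with LPS of the tested members. It stood at 218, 211 and 202 CPM in the solvent libraries and at 39.1, 41.3 and 30.5 in the LPS libraries. LPS lowered it 5.68-fold, to 17.6% of the solvent mean, with a log2 fold change of -2.51 ± 0.18 (SE, edgeR adjusted p = 1.08e-14). In none of the 18 libraries without LPS was Ifi30 below 165.5 CPM.

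Melatonin given before LPS left Ifi30 higher than LPS alone at every dose. The levels were 121, 98.4 and 112 CPM with 1 mM and 85.9, 87.2 and 80.2 with 100 µM. They were 56.8, 75.4 and 84.3 CPM with 10 µM, 51.0, 53.1 and 86.4 with 1 µM and 66.1, 54.9 and 63.3 with 0.1 µM. All 15 libraries with both agents lay above the highest LPS library and below the lowest library without LPS. The log2 fold changes against LPS were 1.57 ± 0.18 at 1 mM (adjusted p = 1.29e-08), 1.19 ± 0.18 at 100 µM (adjusted p = 4.83e-05) and 0.96 ± 0.18 at 10 µM (adjusted p = 0.00338). They were 0.78 ± 0.18 at 1 µM (adjusted p = 0.0171) and 0.73 ± 0.18 at 0.1 µM (adjusted p = 0.0213). These 5 comparisons share the 3 LPS libraries, so they are not independent of each other.

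The calls from 10 µM down depended on single libraries, and those at 1 µM and 0.1 µM also ended in a fit of the 6 compared libraries alone, with adjusted p-values of 0.0894 and 0.0694. Without LPS replicate 3, the lowest library, the adjusted p was 0.0519 at 10 µM, 0.177 at 1 µM and 0.170 at 0.1 µM. At 1 µM the call also ended without the high replicate 3 of that dose, with an adjusted p of 0.370. At 0.1 µM it ended in 5 of the 6 fits that left out a library, the exception being the one without LPS replicate 2. The calls at 1 mM and 100 µM held in all 12 alternatives run for each.

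With 1 mM melatonin, Ifi30 was 2.98-fold higher than with LPS alone and reached 52.4% of the solvent mean. Cells with 1 mM melatonin alone stood at 207, 208 and 200.04 CPM, so LPS still lowered Ifi30 when melatonin was present (log2 fold change -0.89 ± 0.17, adjusted p = 0.000181). The difference between this response and the response without melatonin, tested as an interaction, was 1.61 ± 0.24 on the log2 scale (adjusted p = 3.54e-05). Ifi30 was the 1 member called in that interaction, which is 3.57% of the tested members beside 1.69% of all genes. Without the 2 libraries in doubt its interaction was 1.60 (adjusted p = 2.10e-05), and Calr was then also called, at 0.57 (adjusted p = 0.0477).

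**Figure D3:**
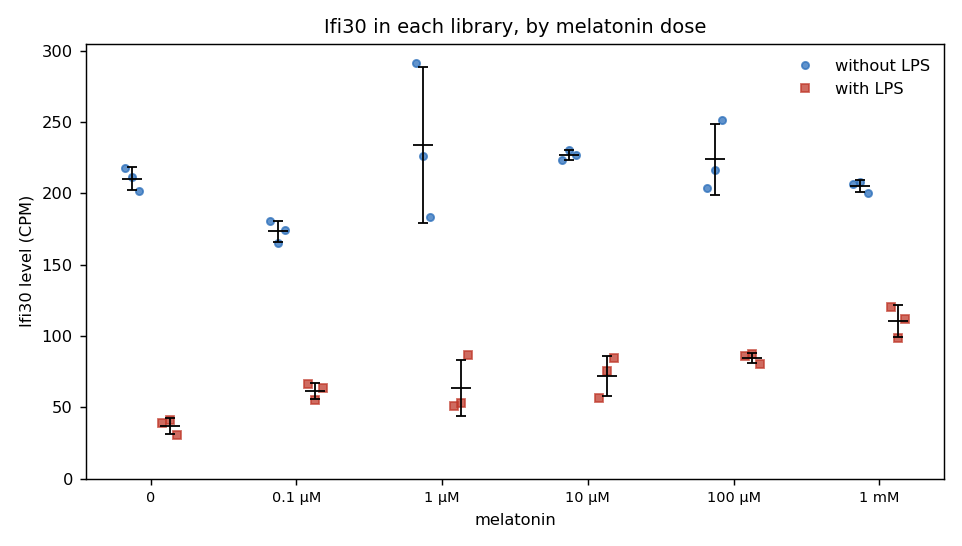
Ifi30 level (vertical axis, CPM) in each of 36 libraries by melatonin dose (horizontal axis), without LPS (blue circles) and with LPS (red squares), with the mean and SD of 3 libraries in black. With LPS the group means run from 37.0 CPM without melatonin to 110.3 with 1 mM, all below every library without LPS.

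With 1 mM melatonin added to LPS, 6 of the 28 tested members differed from LPS alone, 4 higher and 2 lower, which is 21.4% beside 7.55% of all genes. The median log2 fold change of the members was -0.13, beside 0.02 over all genes. Higher were Ifi30, the heavy chains H2-K1 and H2-D1, and Cd74. Lower were Canx and Psmb8.

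H2-K1 stood at 312, 287 and 367 CPM with LPS and 1 mM melatonin, against 199, 190.4 and 160.1 with LPS alone, with no overlap (log2 fold change 0.81 ± 0.16, adjusted p = 0.000604). H2-D1 stood at 531, 508 and 774 CPM, against 398, 432 and 438, also with no overlap (log2 fold change 0.52 ± 0.14, adjusted p = 0.0172). Replicate 3 of LPS with 1 mM melatonin was the highest library for both genes and the shallowest of the series. Without it the adjusted p of H2-D1 was 0.244, and without LPS replicate 1 it was 0.0925, and in a fit of the 6 compared libraries alone it was 0.173, whereas H2-K1 was called in all 12 alternatives run. H2-T23 was not called, at 22.1, 25.3 and 14.97 CPM, below all 3 LPS libraries (log2 fold change -0.91, adjusted p = 0.0872, and 0.0491 with DESeq2). B2m, their shared partner, stood at 506, 384 and 617 CPM, on both sides of the LPS libraries (log2 fold change 0.05, 95% interval -0.22 to 0.32).

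Canx stood at 793, 682 and 798 CPM with LPS and 1 mM melatonin, below all 3 LPS libraries and within the 667 to 1041 CPM of the libraries without LPS (log2 fold change -0.49 ± 0.11, adjusted p = 0.00179). In a fit of the 6 compared libraries alone its adjusted p was 0.122. Its partners in loading were not called: Tapbp stood at 187, 242 and 239.7 CPM (log2 fold change -0.15), Calr at 631, 496 and 594 (0.11) and Pdia3 at 56.5, 73.9 and 107 (-0.41). Tap1 was lower in all 3 libraries, at 44.3, 47.2 and 27.9 CPM, and missed the threshold in edgeR (log2 fold change -0.75 ± 0.25, adjusted p = 0.0540) but not in DESeq2 (adjusted p = 0.0368).

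Psmb8 stood at 154, 146 and 91.2 CPM, below all 3 LPS libraries (log2 fold change -0.63 ± 0.18, adjusted p = 0.0239). Without replicate 3 of LPS with 1 mM melatonin, its lowest library, the adjusted p was 0.199. Without LPS replicate 1 it was 0.0803, without LPS replicate 3 it was 0.160 and in the fit of the 6 compared libraries it was 0.173. Psmb9 stood at 12.1, 7.91 and 11.6 CPM, overlapping the LPS libraries (log2 fold change -0.02), and Psmb10 had a log2 fold change of -0.86 (adjusted p = 0.136).

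Cd74 stood at 56.1, 38.8 and 51.9 CPM, above all 3 LPS libraries (log2 fold change 0.86 ± 0.23, adjusted p = 0.0111). Its adjusted p was 0.130 without LPS replicate 1, the lowest library, and 0.0704 without replicate 1 of the combined group. It was 0.0553 without the filter on low counts and 0.107 in the fit of the 6 compared libraries. Nlrc5 stood at 8.58, 4.03 and 12.4 CPM, overlapping the LPS libraries (log2 fold change -0.83, adjusted p = 0.428), and Ciita at 0, 0 and 0. Cd86 stood at 6.90, 3.60 and 2.39 CPM, below all 3 LPS libraries, and was not called in this comparison (log2 fold change -1.33, adjusted p = 0.158). Cd80 stood at 0, 0 and 1.20 CPM.

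Some macrophage markers moved with these changes. The 7 markers summed to 2443 to 3457 CPM in the libraries of LPS with 1 mM melatonin, against 10426 to 10646 with LPS alone. Lyz2 had the highest mean of the 7 in both groups, 8250 CPM with LPS and 1388 with LPS and 1 mM. Ptprc, Adgre1, Itgam and Lyz2 were called lower. Csf1r, Mrc1 and Cd68 were not called, with Cd68 at means of 214 CPM with LPS and 226 with both. Whether this shift contributed to the presentation gene values was not tested.

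**Figure D4:**
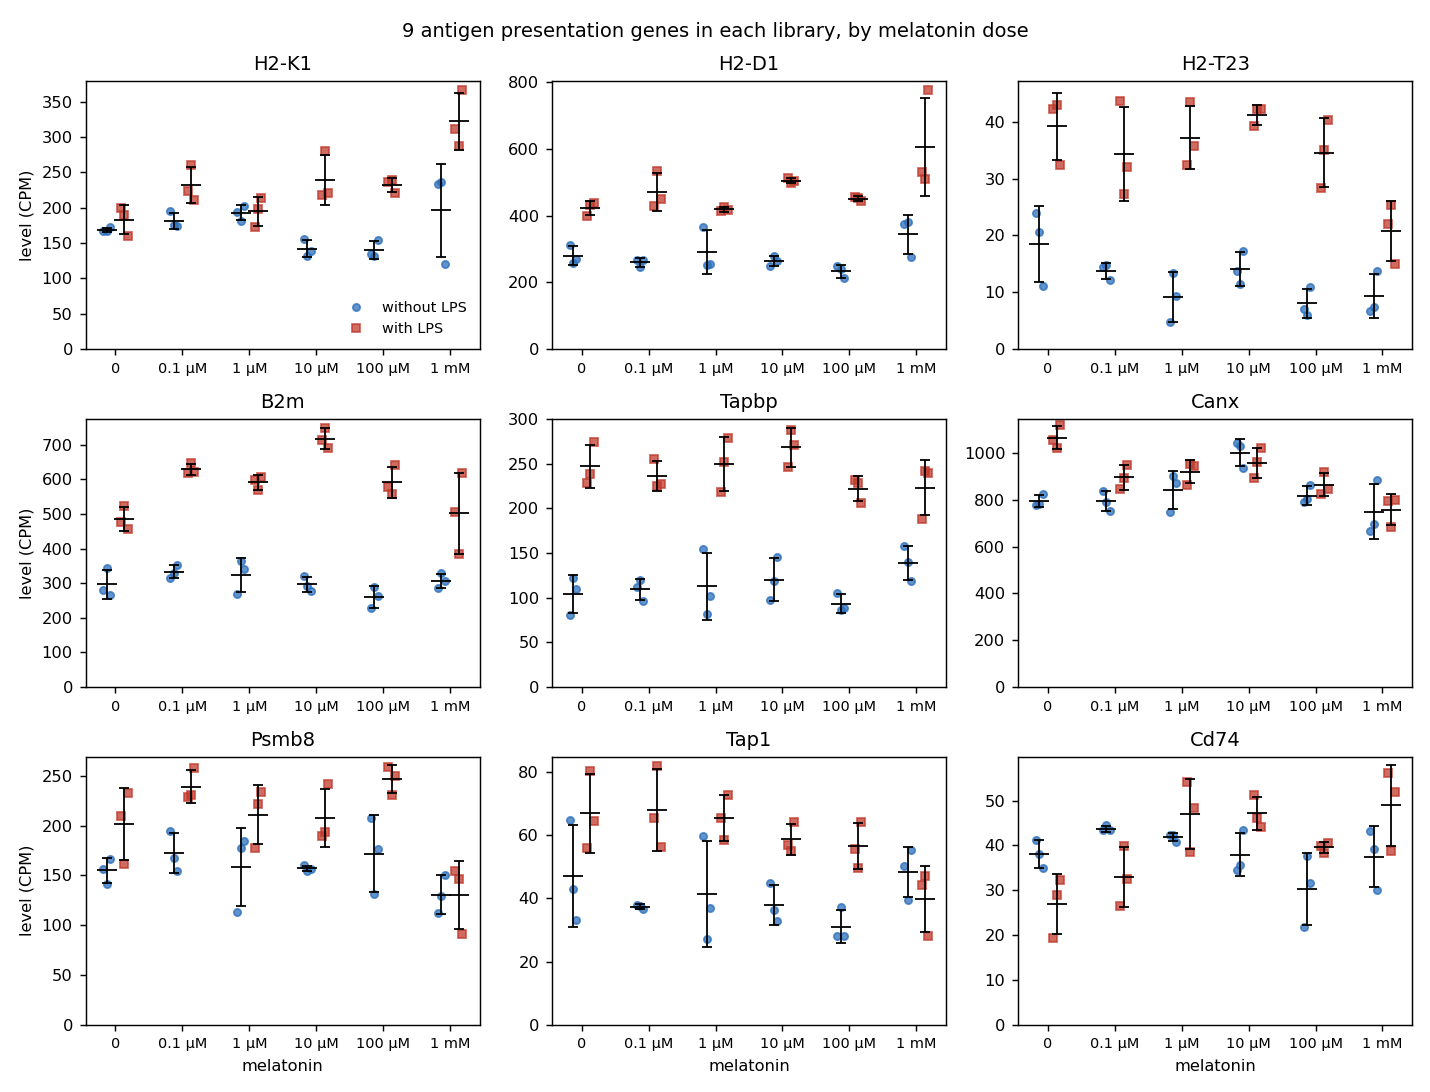
Levels (vertical axes, CPM) of 9 genes in each library by melatonin dose (horizontal axes), without LPS (blue circles) and with LPS (red squares), with means and SDs of 3 libraries in black. H2-K1 and H2-D1 are highest with LPS and 1 mM melatonin, where Canx, Psmb8, Tap1 and H2-T23 lie below their LPS libraries, and B2m is highest with LPS and 10 µM.

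At 100 µM, 2 of the 28 members were called against LPS (7.14%, beside 1.18% of all genes): Ifi30 higher and H2-Q4 lower. H2-Q4, a non-classical heavy chain, stood at 12.3, 10.7 and 8.19 CPM, against 22.1, 25.3 and 31.9 with LPS (log2 fold change -1.35 ± 0.36, adjusted p = 0.0493). The groups did not overlap, but leaving out any 1 of the 6 libraries ended the call, with adjusted p-values of 0.0679 to 0.224. Nlrc5 stood at 2.26, 1.89 and 6.83 CPM, below all 3 LPS libraries, with a log2 fold change of -2.001 ± 0.57 and an adjusted p of 0.0727. It was called without replicate 3 of that dose (adjusted p = 0.0286), by DESeq2 (adjusted p = 0.0191) and in the fit of the 6 compared libraries (adjusted p = 0.0466).

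At 10 µM, 2 members were called (7.14%, beside 0.371% of all genes), Ifi30 and B2m, both higher. B2m stood at 713, 749 and 690.0 CPM, above all 3 LPS libraries (log2 fold change 0.56 ± 0.13, adjusted p = 0.0426). Leaving out any 1 of the 6 libraries ended the B2m call, with adjusted p-values of 0.0796 to 0.200. B2m was above the highest LPS library in 13 of the 15 libraries with both agents, with log2 fold changes against LPS of 0.29 at 100 µM, 0.29 at 1 µM and 0.37 at 0.1 µM, none called.

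At 1 µM and at 0.1 µM, Ifi30 was the 1 member called, or 3.57% of those tested, beside 0.612% and 1.36% of all genes. Cd74 at 1 µM stood at 54.2, 38.6 and 48.3 CPM, above all 3 LPS libraries (log2 fold change 0.81, adjusted p = 0.0887, and 0.0244 with DESeq2). Pdia3 at 0.1 µM stood at 59.6, 51.9 and 66.6 CPM, below all 3 LPS libraries (log2 fold change -0.82, adjusted p = 0.0566). Pdia3 was called there in 4 alternatives, among them DESeq2 (adjusted p = 0.0294). Canx was below its lowest LPS library in all 15 libraries with melatonin, with log2 fold changes from -0.49 at 1 mM to -0.15 at 10 µM, of which the one at 1 mM passed in edgeR. The one at 100 µM passed with DESeq2 (adjusted p = 0.0282) and in the fit of the 6 compared libraries (adjusted p = 0.0206). These comparisons share their LPS libraries as well.

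The direct comparison of 1 mM with 100 µM, both with LPS, does not use the LPS libraries. It called 2 members (7.14%, beside 4.93% of all genes). Psmb8 fell from 259, 231 and 249.97 CPM at 100 µM to 154, 146 and 91.2 at 1 mM (log2 fold change -0.92 ± 0.18, adjusted p = 0.000935). H2-Q4 rose from 12.3, 10.7 and 8.19 CPM to 31.1, 49.2 and 20.4 (log2 fold change 1.69 ± 0.36, adjusted p = 0.00231). Neither gene overlapped between the 2 doses. H2-K1 and H2-D1 were higher at 1 mM without overlap and missed the threshold, at log2 fold changes of 0.47 (adjusted p = 0.0939) and 0.42 (adjusted p = 0.0864). DESeq2 called both, with adjusted p-values of 0.0429 and 0.0340.

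A slope over the logarithm of dose, across the 5 doses with LPS, called 5 members (17.9%, beside 7% of all genes). It rose for Ifi30, by 0.21 ± 0.04 log2 units per 10-fold of dose (adjusted p = 0.000191), and for H2-K1, by 0.12 ± 0.04 (adjusted p = 0.0353). It fell for Psmb8 at -0.15 ± 0.04 (adjusted p = 0.0137), Tap1 at -0.17 ± 0.06 (adjusted p = 0.0434) and Cd86 at -0.40 ± 0.12 (adjusted p = 0.0396). Cd86 stood at 4.53, 2.37 and 3.94 CPM at 100 µM and 20.4, 5.37 and 9.01 at 0.1 µM. Without replicate 1 of 0.1 µM, its highest library, its adjusted p was 0.310, and it was also lost without replicate 2 or 3 of 1 mM, replicate 2 or 3 of 100 µM, or replicate 1 or 2 of 1 µM. The slopes of H2-K1 and Psmb8 were lost without replicate 3 of 1 mM, with adjusted p-values of 0.121 and 0.0899. H2-K1 was also lost without replicate 2 of 100 µM, replicate 1 of 1 µM, or replicate 1 or 3 of 0.1 µM, with adjusted p-values up to 0.119. Psmb8 was also lost without replicate 3 of 0.1 µM (0.0554). The Tap1 slope was lost when single libraries of any of the 5 doses were left out, with adjusted p-values up to 0.202. With 1 mM left out, edgeR called 0 members over the 4 lower doses, beside 0.0177% of all genes. Its unadjusted p was below 0.05 for 5 members, a count for which no share of all genes was worked out. The Ifi30 slope was then 0.16 ± 0.05 per 10-fold (adjusted p = 0.597).

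With melatonin alone, edgeR called 0 of the 28 members at each of the 5 doses. The share of all genes called against solvent was 0.418% at 1 mM, 0.0824% at 100 µM and again 0.0824% at 10 µM, 0.147% at 1 µM and 0.341% at 0.1 µM. DESeq2 also called 0 members at each dose. At an unadjusted p below 0.05 there were 4 members at 1 mM, 2 each at 100 µM, 10 µM and 1 µM, and 1 at 0.1 µM. The share of all genes at this unadjusted threshold was not worked out, so these counts are not read as effects. Without the 2 libraries in doubt, 2 members fell at 1 mM: H2-T23, at a log2 fold change of -1.39 (adjusted p = 0.0205), and Calr, at -0.46 (adjusted p = 0.0238). At 1 µM alone 0 members were called with or without these libraries. With all libraries H2-T23 stood at 6.78, 7.34 and 13.8 CPM and Calr at 260.4, 234 and 390.0, and for both genes replicate 3 was the highest of the 3. H2-K1 stood at 233, 236 and 120.1 CPM, so that its replicates 1 and 2 lay above all solvent libraries and replicate 3 below them.

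In cells that all had 1 mM melatonin, LPS changed 7 of the 28 members (25%, beside 9.62% of all genes). Higher with LPS were H2-K1 (log2 fold change 0.71 ± 0.16), H2-D1 (0.81 ± 0.14), H2-T23 (1.16 ± 0.34), B2m (0.71 ± 0.14), Tapbp (0.68 ± 0.18) and Calr (0.96 ± 0.14), and Ifi30 was lower. Without melatonin H2-K1 had not been called, but its interaction was not called either (log2 0.59, adjusted p = 0.226, and 0.34, adjusted p = 0.466, without the 2 libraries in doubt). H2-T23 was lost without replicate 1 or 2 of either group, with adjusted p-values of 0.0598 to 0.131. Without replicate 3 of 1 mM melatonin, one of the 2 libraries in doubt, the adjusted p of H2-K1 was 0.0525 and that of Tapbp 0.0596. With both of these libraries left out, H2-K1 had a log2 fold change of 0.46 (adjusted p = 0.0378) and Tapbp of 0.59 (adjusted p = 0.0206). The others were then at 1.22 for Calr, 1.56 for H2-T23, 0.71 for B2m, 0.68 for H2-D1 and -0.91 for Ifi30, and all 7 were still called.

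Over the 16 comparisons, edgeR called 14 of the 28 tested members at least once and 14 never. The share of all tested genes called at least once was not worked out, so whether this count is unusual was not tested. Never called by edgeR's test with all libraries were H2-Q6, H2-Q7, H2-T22, H2-M3, Tap2, Tapbpl, Erap1, Psmb9, Psmb10, Psme1, Psme2, Nlrc5, H2-DMa and Cd80. Of these, DESeq2 called Nlrc5 at 100 µM with LPS and H2-Q6 at 1 µM with LPS (adjusted p = 0.0403).

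Other genes of the pathway put these values in context. The shares of all genes called, 16.5% for LPS and 7.55% for 1 mM melatonin with LPS, apply beside the counts of each list. Of 18 constitutive proteasome genes (subunits and associated factors) LPS raised 8 and lowered 0. Among those raised were Psma6 (1033 to 1076 CPM in solvent, 2365 to 2656 with LPS, log2 fold change 1.24 ± 0.17) and Psma2 (log2 fold change 1.15 ± 0.20). Of 10 genes of peptide trimming or of folding in the endoplasmic reticulum LPS raised 6 and lowered 0, led by Hspa5, the chaperone BiP (log2 fold change 1.42 ± 0.10). Of 8 endosomal processing genes it raised 4 and lowered 2. Lower with LPS were Lgmn, the legumain gene, at 180.1 to 208 CPM in solvent and 47.6 to 57.2 with LPS (log2 fold change -1.90 ± 0.22), and Ctss, the cathepsin that trims the invariant chain (log2 fold change -0.56 ± 0.15). Higher were Ctsl, Ctsb, Ctsz and Sppl2a, with Ctsl at a log2 fold change of 1.39 ± 0.20. 

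Among 12 further class I genes, 9 of them tested, LPS raised H2-T24 and lowered Mr1. H2-T24 stood at 28.9, 30.8 and 31.3 CPM in solvent, 155, 237 and 216 with LPS and 13.2, 23.3 and 23.1 with LPS and 1 mM melatonin. The LPS libraries were thus above both other groups, with log2 fold changes of 2.74 ± 0.33 for LPS (adjusted p = 1.21e-08) and -3.35 ± 0.34 for the addition of 1 mM melatonin (adjusted p = 1.24e-09). Mr1, which presents microbial vitamin metabolites, went the other way, at 1.02, 3.45 and 7.64, 0.152, 0.873 and 0.154 and 7.20, 3.60 and 11.4 CPM in the same order of groups, so that the LPS libraries were the lowest. Of the 9 tested, H2-T24 and Mr1 included, edgeR called 0 in the interaction of LPS and 1 mM melatonin, beside 1.69% of all genes. The smallest adjusted p there was 0.120. With 1 mM melatonin alone edgeR called 1 of the 9, lower than in solvent (adjusted p = 0.00363), beside 0.418% of all genes. In cells that all had 1 mM melatonin, LPS raised 1 of the 9 (adjusted p = 0.0113), beside 9.62% of all genes. Of 4 further class II genes 1 was tested and not called.

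Of 12 transcription factors known to act on MHC genes, 1 mM melatonin with LPS lowered Irf8 (log2 fold change -1.40 ± 0.24) and raised 0. Of 11 further co-stimulators and checkpoint ligands, 9 of them tested, LPS raised Cd40, Cd274 (PD-L1, log2 fold change 2.22 ± 0.26) and Icosl (2.24 ± 0.59). The addition of 1 mM melatonin lowered Icosl and raised Tnfsf9, the 4-1BB ligand (0.80 ± 0.25). It also lowered 4 of the 8 endosomal genes (Ctsb, Ctsd, Ctss and Sppl2a, log2 fold changes -0.56 to -0.47), 2 of the 18 proteasome genes (Psma6 and Psmb5) and Hspa5 of the 10 folding and trimming genes.

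On mm10 with GENCODE M21, 18 of the 33 members lie on chromosome 17 between 33915899 and 37274484, the mouse MHC, and the other 15 on 8 other chromosomes. Ifi30 lies on chromosome 8 from 70762774 to 70766663 on the minus strand, where GENCODE gives it as a processed transcript. H2-Q4 overlaps Gm11131 on the opposite strand over 19.1% of its exonic bases, with 191 counts for Gm11131. For Ifi30 the overlap with 6330537M06Rik on the opposite strand is 8.66% of exonic bases, and that gene had 111 counts in all, beside 33693 for Ifi30. Neighbouring MHC genes are near copies of each other, so that 50-base stretches of a transcript can occur in another gene. The share of such stretches was 34.5% for H2-T22, 32.0% for H2-Q6, 26.4% for H2-Q7, 21.8% for H2-Q4, 13.6% for H2-T23, 12.8% for H2-D1 and 9.63% for H2-K1. It was 28.3% for Psme2, shared with Psme2b, and 22.7% for H2-DMb1, shared with H2-DMb2. The counts of these genes are uncertain, since the handling of reads with several matches is not stated. The shares do not measure the size of that uncertainty, which was not estimated. For B2m, Canx, Ifi30, Cd74 and Nlrc5 the share was 0. The heavy chains of BALB/c cells also differ in sequence from those of mm10, which comes from C57BL/6. The effect on their counts was not tested.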

How the data were processed

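RNA-seq of 36 RAW 264.7 libraries (12 groups of 3) was used as deposited. The deposited table holds whole-number counts per gene that the authors obtained on mm10; the submitters' processing notes name cutadapt and featureCounts. The aligner, tool versions, strand setting and treatment of multiply matching reads are not given in the sources used here. The deposited FPKM values, also the authors', served only to compare levels between genes.

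Counts were tested with edgeR 4.0.16 (quasi-likelihood test, limma 3.58.1, R 4.3.3) in 1 fit of all libraries, with TMM scaling and edgeR's filter on low counts, which kept 16988 genes. Benjamini-Hochberg adjustment ran over all of them, with a threshold of 0.05. CPM are counts relative to the TMM-scaled total of the tested genes. Log2 fold changes carry SEs and means carry SDs over 3 libraries. The labels do not say that libraries came from separate cultures, so p-values measure only how far these libraries spread, and that spread may be technical. Samples of a group differed beyond counting noise (chi-square per degree of freedom 9.12 to 41.3). The edgeR test of LPS against solvent was run on simulated counts. The other comparisons and steps were not tested in this way.

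Alternatives were DESeq2 1.42.0, its size factors, no filter, a fit of only the compared libraries, a replicate block, each library left out, and the 2 libraries in doubt left out. The members and lists were chosen with earlier results of these data known, and the dose slopes, promoter windows and shared stretches were added after the data were seen. Values per library are given for members called in LPS against solvent, in LPS with 1 mM melatonin against LPS or in the interaction, and always for Nlrc5, Ciita, Cd74, B2m, H2-K1, Tap1, Psmb8, Psmb9, Cd80 and Cd86. Of each pathway list at most 4 genes with the smallest adjusted p are named for a comparison; Ctsb and Ctss, in LPS against solvent, were named beyond this after their values were seen. The response of the transcription factor list to LPS alone is not reported here. Promoters are RefSeq windows of 200 bases (GRCm38.p6).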

Additional observations from a re-analysis of the deposited data

Results flagged for a closer look

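The response to LPS differed between cells with and without 1 mM melatonin, by the interaction term in edgeR's fit, for 1 antigen presentation gene and 3 genes of the related lists. These were 1 of 28 tested members, 1 of 18 proteasome genes, 1 of 8 endosomal genes and 1 of 9 tested co-stimulators and checkpoint ligands. The share of all genes called was 1.69%, and the other lists had 0 calls. Ifi30 had an interaction of 1.61 on the log2 scale (SE 0.24, adjusted p = 3.54e-05). Psma6, a proteasome subunit, had -0.93 (adjusted p = 0.0320), and Sppl2a, a protease that cleaves the invariant chain remnant, had -0.97 (adjusted p = 0.0193). Tnfsf9, the 4-1BB ligand, had 1.54 (adjusted p = 0.00985). Without the 2 libraries in doubt, the interaction of Psma6 was -0.90 (adjusted p = 0.0344), that of Tnfsf9 was 2.00 (adjusted p = 9.50e-05), and Sppl2a, at -0.85, missed the threshold (adjusted p = 0.0514).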

How the results depend on the processing

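The 8 members called in LPS against solvent were within 1.5 times of that count in every alternative (6 to 10 with each library left out), and no direction of a tested result turned. Against LPS alone, the 6 members called at 1 mM became 2 in the fit of only the 6 compared libraries, and 3 to 7 with each library left out. At 100 µM the 2 became 4 in that fit and 4 with DESeq2, and 1 to 2 with a library left out; at 10 µM the 2 became 0 to 1 with a library left out. At 1 µM the 1 became 0 in the fit of the compared libraries, 3 with DESeq2 and 0 to 1 with a library left out. At 0.1 µM the 1 became 2 (Ifi30 and Pdia3) without the filter, with DESeq2 and without the 2 libraries in doubt, 2 (Pdia3 and B2m, with Ifi30 lost) with only the compared libraries, and 0 to 1 with a library left out. For 1 mM alone the 0 became 2 without those 2 libraries and 0 to 1 with a library left out, and for 10 µM alone 1 with only the compared libraries. For 1 mM against 100 µM with LPS, the 2 became 4 with DESeq2 and without those 2 libraries, and 2 to 3 with a library left out. LPS in the presence of 1 mM gave 2 in place of 7 with only the compared libraries (5 to 8 with a library left out), the interaction 2 in place of 1 without the 2 libraries, and the slope 3 in place of 5 without the filter (2 to 5). Calls among all genes moved in the same alternatives, from 2280 to 3064 for LPS against solvent. Against LPS they ran from 558 to 1651 at 1 mM, 82 to 626 at 100 µM and 17 to 374 at 10 µM. They were 50 to 415 at 1 µM and 46 to 508 at 0.1 µM. With melatonin alone they were 0 to 485 at 1 mM and 9 to 62 at 10 µM. For 1 mM against 100 µM with LPS they were 261 to 1092, and for LPS in the presence of 1 mM 595 to 1958. The interaction had 102 to 472 and the slope 808 to 1421. The cause of these shifts was not tested.

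Replicate numbers did not pair the libraries: deviations of same-numbered libraries correlated at -0.0885 to 0.0761 over 39 pairs, and in 0 of 13 comparisons did all pairs exceed 0.1. With the replicate block the 10 µM comparison called 1 member in place of 2, with B2m lost (adjusted p = 0.05003). At 100 µM it called 2 as before, with H2-Q4 lost (adjusted p = 0.0636) and Nlrc5 gained (adjusted p = 0.0417), and the slope called 6, with Nlrc5 added (adjusted p = 0.0486). Depth limits Cd80, which had 0 counts in 22 of 36 libraries, Psme2 (11 libraries), H2-DMa (8) and the 5 untested members.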
